A study of Mus musculus with 7 samples.

Results

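BRG1 binding in resting Th2 cells was compared with that in the naive CD4+ T cells from which such cells are grown, by chromatin immunoprecipitation and sequencing (ChIP-seq). The comparison used 3 of the 7 libraries of the series: the resting Th2 library, the naive library and an input library, chosen by their labels. Resting Th2 cells were BALB/c helper cells differentiated in culture in a single round, on plates coated with anti-CD3 at 1 µg/ml and anti-CD28 at 2 µg/ml, with IL-4 at 10 ng/ml and anti-IFNγ at 10 µg/ml. IL-2 at 100 U/ml was added after 24 h and kept through expansion. Naive cells were CD4+CD62L+ cells taken without culture from spleens and lymph nodes. For every BRG1 library, naive and cultured, the labels give mice aged 4 to 6 weeks and a purity of 95%. The input was sheared DNA of pooled CD4+ T helper cells without immunoprecipitation, so it is matched to neither library. The J1 antibody to BRG1 was used on crosslinked nuclei treated with MNase and sonicated. The remaining 4 libraries served to describe the same regions: resting Th1 cells, grown like the Th2 cells but with IL-12 at 1 ng/ml and anti-IL-4 at 10 µg/ml, and Th2, Th1 and Th17 effectors given PMA (50 ng/ml) plus ionomycin (500 ng/ml) over 1.5 h. Th17 cells were grown with soluble anti-CD3 (4 µg/ml) and anti-CD28 (1 µg/ml), both blocking antibodies, IL-6 (100 ng/ml), IL-1β (10 ng/ml) and TGF-β (1 ng/ml), then IL-23 (10 ng/ml). With 1 library in every group, replicate error is unknown throughout and p-values are not given. All ratios compare libraries, and every interval is a 95% exact interval that covers counting error only.

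BRG1 is the catalytic ATPase of SWI/SNF (BAF) complexes, which slide or evict nucleosomes and so open DNA to transcription factors. BRG1 is not known to recognise a specific DNA sequence by itself. It reaches its sites through transcription factors and through acetylated histones, which its bromodomain binds. In Th2 differentiation, IL-4 signals through STAT6, GATA3 is induced, and the genes of the type 2 cytokines IL-4, IL-5 and IL-13 gain accessible distal elements while the cells divide. Naive and resting Th2 cells thus differ in lineage, in earlier activation and in time in culture, and these cannot be told apart in this pair.

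The deposited lists held 2114977 aligned reads for resting Th2, 3533175 for naive and 3807367 for input. Reads that repeated a position and strand made up 36.6% of the resting Th2, 41.4% of the naive and 7.23% of the input library, and the distinct reads numbered 1340208, 2071800 and 3531867 in that order. The 4 other BRG1 libraries held 1808000 to 7892944 distinct reads. The distance at which reads of opposite strands paired most often was 100 bp in resting Th2, 130 bp in naive and 100 bp in input, in steps of 10 bp. Levels are given in RPM, reads per 1000000 distinct reads, and positions are on the mouse build mm9. Counts of reads are not scaled for depth: stimulated Th2 had 4261900 distinct reads against 1340208 in resting Th2. More reads in a deeper library therefore need not mean a higher level. The gene table at hand was of GRCm38, so regions are given by position, and their genes, promoters and sequence were not analysed here. The labelled cell types could for that reason not be checked against marker genes.

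More BRG1 regions were called in resting Th2 than in naive chromatin. Each library averages over many cells, so binding in fewer cells and less binding per cell cannot be told apart. At the depth of the resting Th2 library, with windows of 200 bp tested against the genome mean and the local input, 8546 regions were called in resting Th2 and 3107 in naive. They covered 1977 kb in resting Th2 and 682.2 kb in naive. The regions were narrow in both: 87.9% of those of resting Th2 and 92.2% of those of naive were a single window. Resting Th2 held 6.78% of its reads in its own regions (6.74 to 6.82), where the input held 0.916% of its reads, an enrichment of 7.40-fold. Naive held 2.09% in its own regions (2.07 to 2.11), where the input held 0.432%, an enrichment of 4.84-fold. Since the sets were unequal in size, the overlap is given from each side, with 1 shared base pair as the minimum. A naive region lay on 17.0% (16.2 to 17.8) of the resting Th2 regions. A resting Th2 region lay on 46.7% (44.9 to 48.5) of the naive ones. Of the 26457 regions in the union over all 6 BRG1 libraries, 2722 were called in resting Th2 alone and 744 in naive alone. In resting Th2, 40.6% of regions overlapped a resting Th1 region and 36.1% a stimulated Th2 region. In naive those shares were 49.1% and 39.2%.

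Region by region, the difference ran mainly one way. Of the union regions, 8910 held at least 10 reads in the pair and were tested. The call required a 3-fold or larger ratio of RPM, in either direction, with an interval that did not contain 1. BRG1 was higher in resting Th2 than in naive in 1820 regions, 20.4% of those tested, and lower in 102, or 1.14%. The same reads served to find and to count regions. With regions found on one part of the reads and counted on the rest, 13.7% of 2140 were higher and 0.467% lower. Each part held fewer reads than its library, under the same minimum of 10 reads. Reuse of reads and depth thus changed together and cannot be told apart. A further 17547 regions held too few reads to be tested. The median ratio of resting Th2 to naive was 1.69, with quartiles of 1.03 and 3.09, and 75.7% of tested regions had a ratio above 1. Between the regions the balance was opposite: in the 244309 bins of 10 kb that held no region, the ratio was 0.863. A library with a larger part of its reads in regions has a smaller part elsewhere, and how far the quality of the immunoprecipitation differed between the libraries was not tested. Relative to the median ratio, a shift of 0.75 on the log2 scale, 805 regions were higher (9.03%) and 522 lower (5.86%). The count of lower regions thus depended on the scaling, and higher regions outnumbered lower ones under both.

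**Figure D1:**
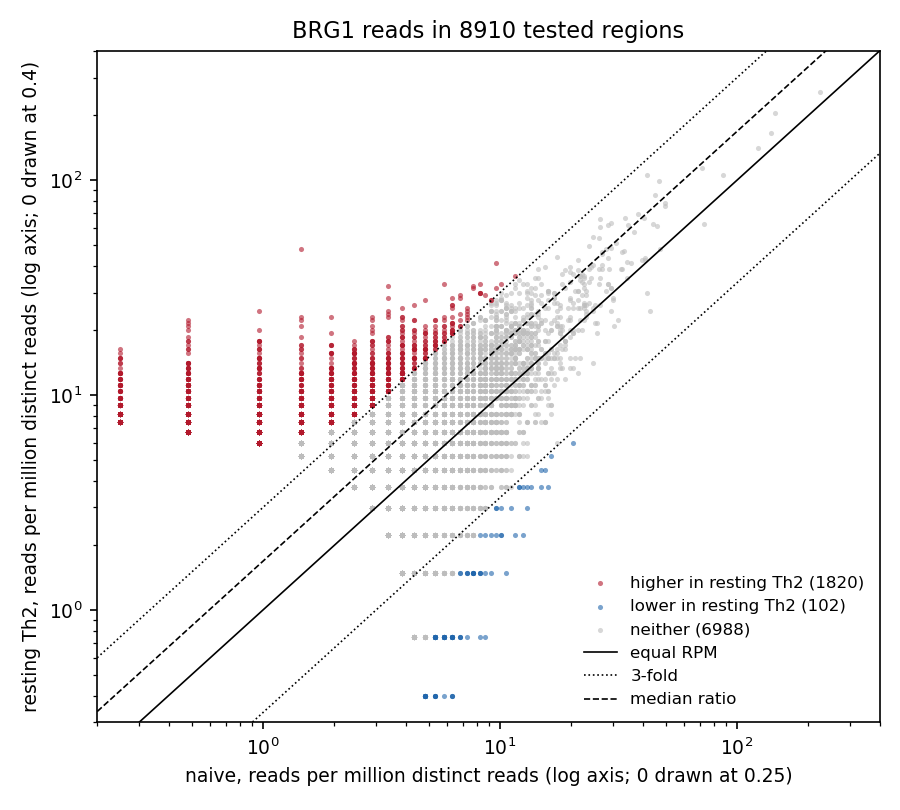
BRG1 level of each of the 8910 tested regions, with naive RPM on the horizontal and resting Th2 RPM on the vertical axis, both logarithmic; dotted lines mark 3-fold differences, the solid line equal RPM and the dashed line the median ratio of 1.69. The 1820 higher regions lie at the left, at low naive levels, and the 102 lower regions lie below the lower dotted line, while the regions with most reads in both libraries are grey.

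Most of the higher regions had little naive signal. As regions of their own, 1756 of the 1820 (96.5%) were called in resting Th2, against 65.4% of all tested regions, and 46 (2.53%) in naive, against 29.2%. Naive had 0 reads in 167 of them, and a naive level below that of the input in 554, or 30.4%. Among all tested regions naive was below the input in 917, or 10.3%. The pooled naive level in the higher regions was 1.57-fold over input (1.52 to 1.62). These values belong to the choice of the regions and are a description only.

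The region with the most certain increase, chr19:10379201-10379600, held 64 resting Th2 reads against 3 naive reads, 33.0-fold higher (10.8 to 164). Resting Th1 had 33 reads there, stimulated Th2 204, stimulated Th1 154, stimulated Th17 148 and the input 10. In RPM, resting Th2 and stimulated Th2 were nearly level, at 47.8 and 47.9, and naive stood at 1.45. The site was called as a region in all 5 cultured libraries and not in naive. A different pattern was seen at chr12:91814601-91814800, with 21 resting Th2 reads against 0 naive reads. Set against a floor of 3 naive counts this is 10.8-fold higher, a value that leaves out the error of the resting Th2 count. The lower end of the exact interval is 8.05. Stimulated Th2 held 22 reads there, against 4 in resting Th1, 4 in stimulated Th1, 5 in stimulated Th17 and 1 in input. In RPM, resting Th2 stood at 15.7 and stimulated Th2 at 5.16. The reads at that site thus came mainly from the Th2 libraries. At chr16:50289601-50290400 resting Th2 had 30 reads against 1 in naive, 46.4-fold higher (7.71 to 1892). Stimulated Th2 had 56 reads there, stimulated Th1 19 and resting Th1 2. The level was 22.4 RPM in resting Th2 and 13.1 RPM in stimulated Th2. At chr17:65100601-65100800 the 19 resting Th2 reads stood against 0 naive reads, 9.79-fold higher against the floor (interval from 7.21). Stimulated Th2 had 38 reads there, stimulated Th1 10 and resting Th1 5. The level was 14.2 RPM in resting Th2 and 8.92 RPM in stimulated Th2.

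Some of the other strong increases were also present in Th1 cells. At chr7:147266801-147267000 resting Th2 held 20 reads against 0 in naive, 10.3-fold higher against the floor (interval from 7.63). Its level was 14.9 RPM in resting Th2 and 7.74 RPM in resting Th1, and stimulated Th2, Th1 and Th17 held 51, 40 and 50 reads. At chr17:83711801-83712200, resting Th2 held 29 reads against 1 in naive, 44.8-fold higher (7.43 to 1831), and the input had 0. The site on chromosome 7 was called in all 5 cultured libraries, and that on chromosome 17 in all but resting Th1, which had 16 reads there. At chr2:153085801-153086400 there were 27 resting Th2 reads against 1 naive read, 41.7-fold higher (6.88 to 1709). The level there was 20.1 RPM in resting Th2, 3.87 RPM in resting Th1, 2.82 RPM in stimulated Th2 and 1.53 RPM in stimulated Th1. That site was called in resting Th2 alone. At chr12:35808201-35808600 resting Th2 had 16.4 RPM, resting Th1 7.74 RPM, stimulated Th2 2.11 RPM and stimulated Th1 1.53 RPM. Stimulated Th17, naive and input had 0 reads there. The regions were picked for high resting Th2 reads, so other libraries tend to lie below resting Th2 in them. Over the 12 regions with the most certain increase, resting Th2 held 19 to 64 reads and naive 0 to 3, with 0 naive reads in 7. Resting Th2 called all 12 as regions, resting Th1 5, stimulated Th2 9 and naive 0.

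Among the 102 lower regions, resting Th2 had 0 reads in 20 and a level below the input in 52, or 51.0%. In resting Th2, 0 of them were called as regions, against 65.4% of all tested regions, and in naive 81 were (79.4%), against 29.2%. These values follow from the choice of the regions. The largest naive count among the 12 most certain decreases was at chr2:127140001-127140800, with 5 resting Th2 reads against 33 in naive, 4.27-fold lower (1.66 to 14.01). Resting Th1 had 22 reads there and stimulated Th2 53. At chr3:94945201-94945600, resting Th2 had 3 reads and naive 26, 5.61-fold lower (1.72 to 28.9). At chr4:40090201-40090600, resting Th2 had 1 read and naive 18, 11.6-fold lower (1.84 to 485). In each of these regions resting Th1 lay between resting Th2 and naive, with 12.2, 9.96 and 3.87 RPM in the order given. The regions were picked for few resting Th2 and many naive reads, which tends to place any other library between them. The region chrX:166433801-166434200 had 0 reads in resting Th2 and 12 in naive, 2.59-fold lower against a floor of 3 counts (exact bound 1.80-fold). Stimulated Th2 held 95 reads there, or 22.3 RPM. The input held 17, or 4.81 RPM, close to naive at 5.79 RPM. At chr2:166527001-166527200 the counts were 0 in resting Th2 and 13 in naive, 2.80-fold lower against the floor (exact bound 1.97-fold). Against the floor, none of the 20 regions without resting Th2 reads reached a 3-fold decrease, and with intervals that leave out a probability of 0.001 in place of 0.05, 719 regions in all were higher and 2 lower.

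Libraries that did not enter the ratio show where the same regions stood in other T helper cells. In the 1820 higher regions resting Th2 had a median of 8.95 RPM, resting Th1 of 4.98, stimulated Th2 of 5.63, with 4.85 in stimulated Th1, 2.66 in stimulated Th17, 1.45 in naive and 0.849 in input. Resting Th2 and naive stand at the ends by the choice of the regions, which tends to place every other library between them. Over all tested regions resting Th2 had a median of 6.72 RPM, resting Th1 of 6.08, stimulated Th2 of 5.63, with 6.13 in stimulated Th1, 3.29 in stimulated Th17, 3.86 in naive and 1.13 in input. Pooled over the set, resting Th1 stood 5.19-fold over input (5.05 to 5.34), stimulated Th2 6.04-fold (5.89 to 6.19) and stimulated Th17 3.09-fold (3.02 to 3.17). Of the higher regions, 50.7% (48.4 to 53.0) were called in stimulated Th2, 45.2% (42.9 to 47.5) in resting Th1, 44.1% (41.8 to 46.4) in stimulated Th1 and 19.5% (17.7 to 21.3) in stimulated Th17. Over all tested regions those shares were 49.2%, 50.1%, 53.3% and 19.2% in the same order. These intervals treat each region as a separate trial, although regions share their library. In the 102 lower regions resting Th2 had a median of 0.746 RPM, resting Th1 of 4.42, stimulated Th2 of 3.52, with 4.72 in stimulated Th1, 2.98 in stimulated Th17, 6.27 in naive and 0.991 in input. The low resting Th2 and high naive medians again follow from the choice.

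**Figure D2:**
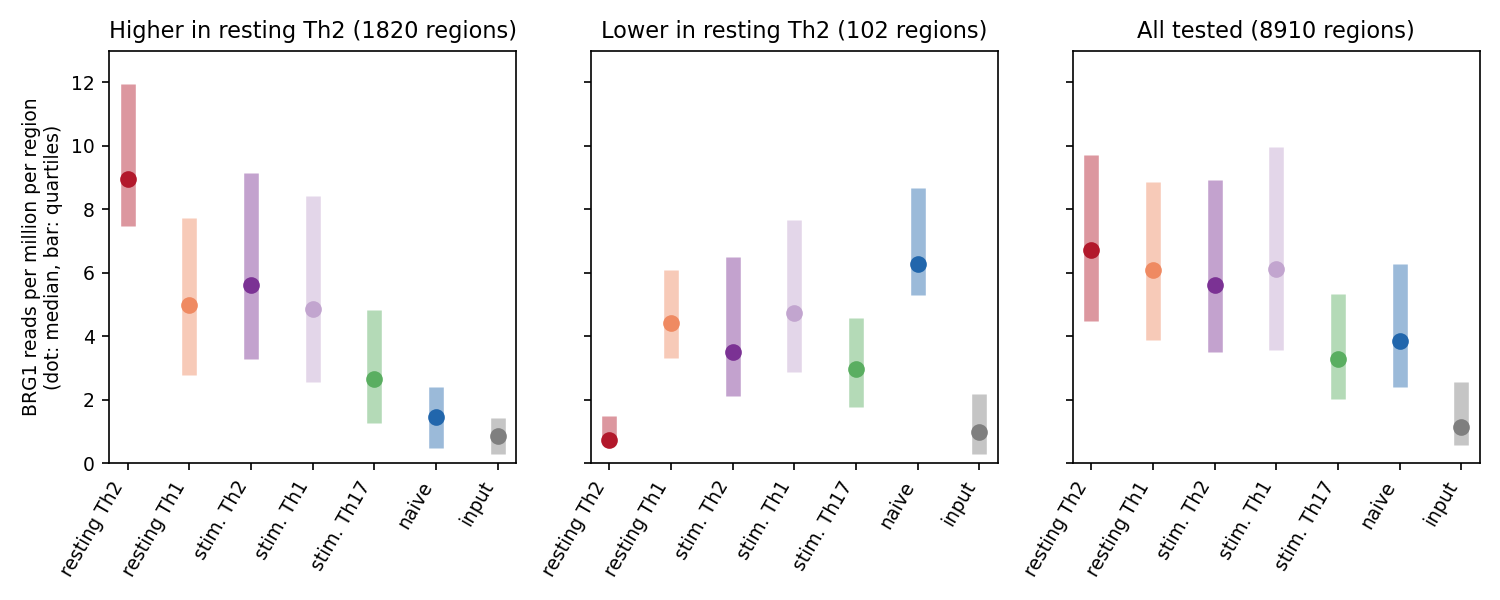
BRG1 level in RPM per region in each library for the regions higher in resting Th2, those lower, and all tested regions; dots are medians and bars the quartiles over regions. In the higher regions the medians of the cultured libraries other than resting Th2 lie between 2.66 and 5.63 RPM, above naive at 1.45 RPM, and in the lower regions naive is at 6.27 and resting Th2 at 0.746 RPM; the places of resting Th2 and naive follow from how the regions were chosen.

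The stimulated Th2 and stimulated Th1 libraries did not enter the ratio of the pair, but both helped to define the regions. Of all tested regions 53.3% were called in stimulated Th1 and 49.2% in stimulated Th2. Of the higher regions those shares were 44.1% and 50.7%. How far this shaped the ratios between the stimulated libraries was not tested. Over the tested regions the median ratio of stimulated Th2 to stimulated Th1 was 0.919. In the regions higher in resting Th2 than in naive it was 1.10, with 60.5% of ratios above 1, against 40.6% of all tested regions. In the regions lower in resting Th2 it was 0.788, with 24.5% above 1. Pooled reads gave 1.08 (1.06 to 1.09) in the higher, 0.747 (0.705 to 0.791) in the lower and 0.918 (0.913 to 0.923) in all tested regions. The 3 intervals did not overlap, and they cover counting error only. At the level of single regions, stimulated Th2 was called higher than stimulated Th1 in 3.7% of all 22076 regions tested in that pair and lower in 2.51%. Among the higher regions of the present comparison the calls were 92 higher (5.31%, 4.30 to 6.47) and 6 lower (0.346%, 0.127 to 0.752). Among its tested regions as a whole they were 110 higher (1.27%) and 48 lower (0.554%). The 92 are thus most of those 110, although the higher regions are 20.4% of the tested ones.

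The ratio after stimulation varied within the higher regions. In the 998 higher regions not called in resting Th1, the median ratio of stimulated Th2 to stimulated Th1 was 1.17 and the pooled ratio 1.14 (1.12 to 1.16), and 76 of 932 were called higher in stimulated Th2 (8.15%) and 2 lower. In the 822 also called in resting Th1, the median was 1.05, the pooled ratio 1.02 (1.00 to 1.04), and 16 of 801 were called higher (2.00%) and 4 lower. In the 167 regions with 0 naive reads the median was 1.51 and the pooled ratio 1.38 (1.32 to 1.45), with 29 of 153 called higher and 0 lower. The most certain of the 92 was chr17:87254801-87255200, with 12 resting Th2 reads against 0 in naive. Stimulated Th2 had 33 reads and stimulated Th1 1, a ratio of 30.3 (5.08 to 1234), with 1 read in resting Th1. At chr14:74301801-74302400, resting Th2 had 15 reads and naive 0, and stimulated Th2 had 29 against 1 in stimulated Th1. At chr13:83293801-83294000, resting Th2 had 10 and naive 0, and stimulated Th2 17 against 0 in stimulated Th1, with 0 also in resting Th1 and input. These 3 sites held Th2 reads both at rest and after stimulation, and 0 to 4 reads in each Th1 library. Stimulated Th17 had 8, 10 and 1 reads in them, in the order given. Their high Th2 and low stimulated Th1 counts follow from the choice of the sites. The opposite order was found at chr2:168381801-168382200, where resting Th2 had 12 reads and naive 3, and stimulated Th2 10 against 30 in stimulated Th1, a ratio of 0.306 (0.134 to 0.644).

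Around their centres the higher regions formed sharp peaks in resting Th2. Within 100 bp of the centre, the mean level per 50 bp was 1.94 RPM in resting Th2 and 0.324 in naive, against 0.102 and 0.0515 RPM more than 1.5 kb away. The centre thus stood 19.1-fold above the flank in resting Th2 and 6.29-fold in naive, while the input centre stood 5.93-fold above its flank. The regions were chosen on resting Th2 and naive reads in these same bins, so the difference between those profiles is a description. In the tested regions called neither way, the centre stood 17.1-fold above the flank in resting Th2, 17.5-fold in naive and 9.89-fold in input. In the lower regions the factors were 2.02 in resting Th2, 13.1 in naive and 4.28 in input. The flanks themselves were higher in resting Th2 than in naive beside the higher regions. The same held beside the regions called neither way, at 0.0867 RPM in resting Th2 and 0.0625 in naive. Beside the lower regions they were nearly level, at 0.119 and 0.115 RPM. Reads of both strands lay in 1799 of the 1820 higher regions in resting Th2 (98.8%), against 94.8% of all tested regions. In naive they lay in all 102 lower regions, against 90.5% of all tested regions. The higher and lower regions were chosen for many reads in those libraries, which favours both strands.

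**Figure D3:**
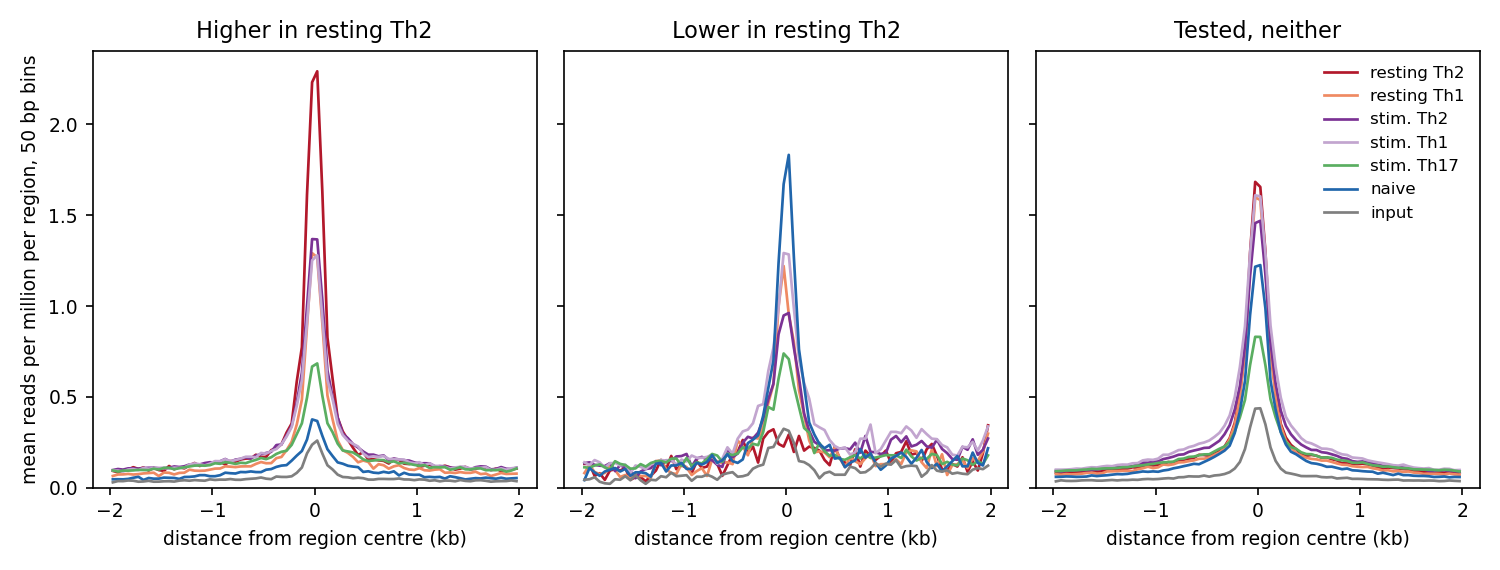
Mean RPM per region in bins of 50 bp against the distance from the region centre, in kb, for the 7 libraries, in regions higher in resting Th2, lower, and tested but neither. Resting Th2 has the highest peak in the first panel, naive is the highest and resting Th2 nearly flat in the second, and in the last the libraries other than stimulated Th17 and input are closer together.

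Some of the higher regions lay near each other along the chromosomes. Of the higher regions, 585 (32.1%) had another higher region within 50 kb, and 205 (11.3%) fell in 60 clusters, defined as 3 or more with no gap over 50 kb. Their median span was 42.4 kb. No lower region had another within 50 kb. The tested regions are more numerous and so closer to each other (67.8% had a neighbour within 50 kb), so the shares for sets of different size cannot be compared. Whether the higher regions were grouped beyond the layout of the tested ones was not tested. The cluster with most regions, chr11:117103601-117211200, held 8 higher regions among 12 tested, with 135 resting Th2 reads against 37 in naive in the 8, a pooled ratio of 5.64 (3.90 to 8.35). None of the other 4 regions there was lower, and the whole span of 107.6 kb had a ratio of 1.95 (1.70 to 2.24). Its regions were also high in resting Th1, at 69.1 RPM in sum against 100.7 in resting Th2 and 17.9 in naive, and were lower in stimulated Th2 than in stimulated Th1, with a ratio of 0.783 (0.683 to 0.897).

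The second cluster, chr3:37172001-37224800, held 6 higher regions, which were all the tested regions in its span. Resting Th2 had 116 reads in them and naive 24, a pooled ratio of 7.47 (4.78 to 12.1), and the whole span of 52.8 kb had a ratio of 5.46 (4.36 to 6.88). Its strongest region, chr3:37211201-37211800, had 40 resting Th2 reads against 17 in naive, 3.64-fold higher (2.02 to 6.84), with 18 in input. Beside it, chr3:37212401-37212800 had 30 resting Th2 reads against 3 in naive, 15.5-fold higher (4.81 to 79.2), with 2 in input. The outermost region, chr3:37224601-37224800, had 11 reads in resting Th2 and 14 in stimulated Th2, or 8.21 and 3.28 RPM. It had 0 reads in resting Th1, 1 in stimulated Th1, 1 in stimulated Th17, 0 in naive and 0 in input. The first region of the cluster, chr3:37172001-37172200, had 11 reads in resting and 11 in stimulated Th2, or 8.21 and 2.58 RPM. It had 7 reads in resting Th1, 1 each in stimulated Th1 and Th17, and 1 in naive. The strongest region thus held reads in all cultured cells, and the edge regions had 1 read each in stimulated Th1 and Th17.

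Clusters on chr7:87285801-87391400 (5 higher regions of 8 tested), chr8:73293401-73335600 (4 of 7) and chr9:107215201-107243200 (4 of 5) had pooled ratios of resting Th2 to naive of 4.95 (2.95 to 8.63), 5.49 (3.30 to 9.52) and 4.57 (2.78 to 7.78). Pooled ratios take in only regions already called 3-fold higher, which fixes a value of about 3 or more. Over their whole spans these 3 clusters had ratios of 1.93 (1.65 to 2.26), 2.10 (1.71 to 2.59) and 4.07 (2.95 to 5.67), and the chr7 span also held tested regions at 0.859 and 0.883. Across all 60 clusters the span ratio was 1.14 (0.891 to 1.46) to 6.43 (3.86 to 11.2). The ratio of stimulated Th2 to stimulated Th1 was 0.605 to 2.39 with a median of 1.10. In 13 clusters the interval of that ratio lay above 1, and in 2 below. Chosen after its values were seen, as the cluster of at least 4 regions with the largest such ratio, chr11:53403801-53470600 had 4 higher regions, which were all those tested in its span. Resting Th2 had 46 reads in them and naive 9, a pooled ratio of 7.90 (3.82 to 18.4). Resting Th1 had 17 reads and the input 6. After stimulation Th2 cells had 109 reads there and Th1 cells 43, a ratio of 2.33 (1.62 to 3.40). Its regions chr11:53418801-53419400, chr11:53430801-53431000 and chr11:53470401-53470600 had 13, 9 and 12 reads in resting Th2 against 2, 1 and 1 in naive. Stimulated Th2 had 40, 17 and 26 reads in them against 10, 2 and 7 in stimulated Th1. In RPM these 3 regions had 9.70, 6.72 and 8.95 in resting Th2 and 9.39, 3.99 and 6.10 in stimulated Th2. The other region, chr11:53403801-53404000, had 12 reads in resting Th2 and 5 in naive, and was level after stimulation, at 6.10 RPM in Th2 and 6.13 RPM in Th1. Preference for Th2 was thus present in 3 of the 4 regions. Of all clusters, only one of 3 regions, chr5:28569001-28642600, had a larger ratio of stimulated Th2 to stimulated Th1, 2.39 (1.40 to 4.23).

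**Figure D4:**
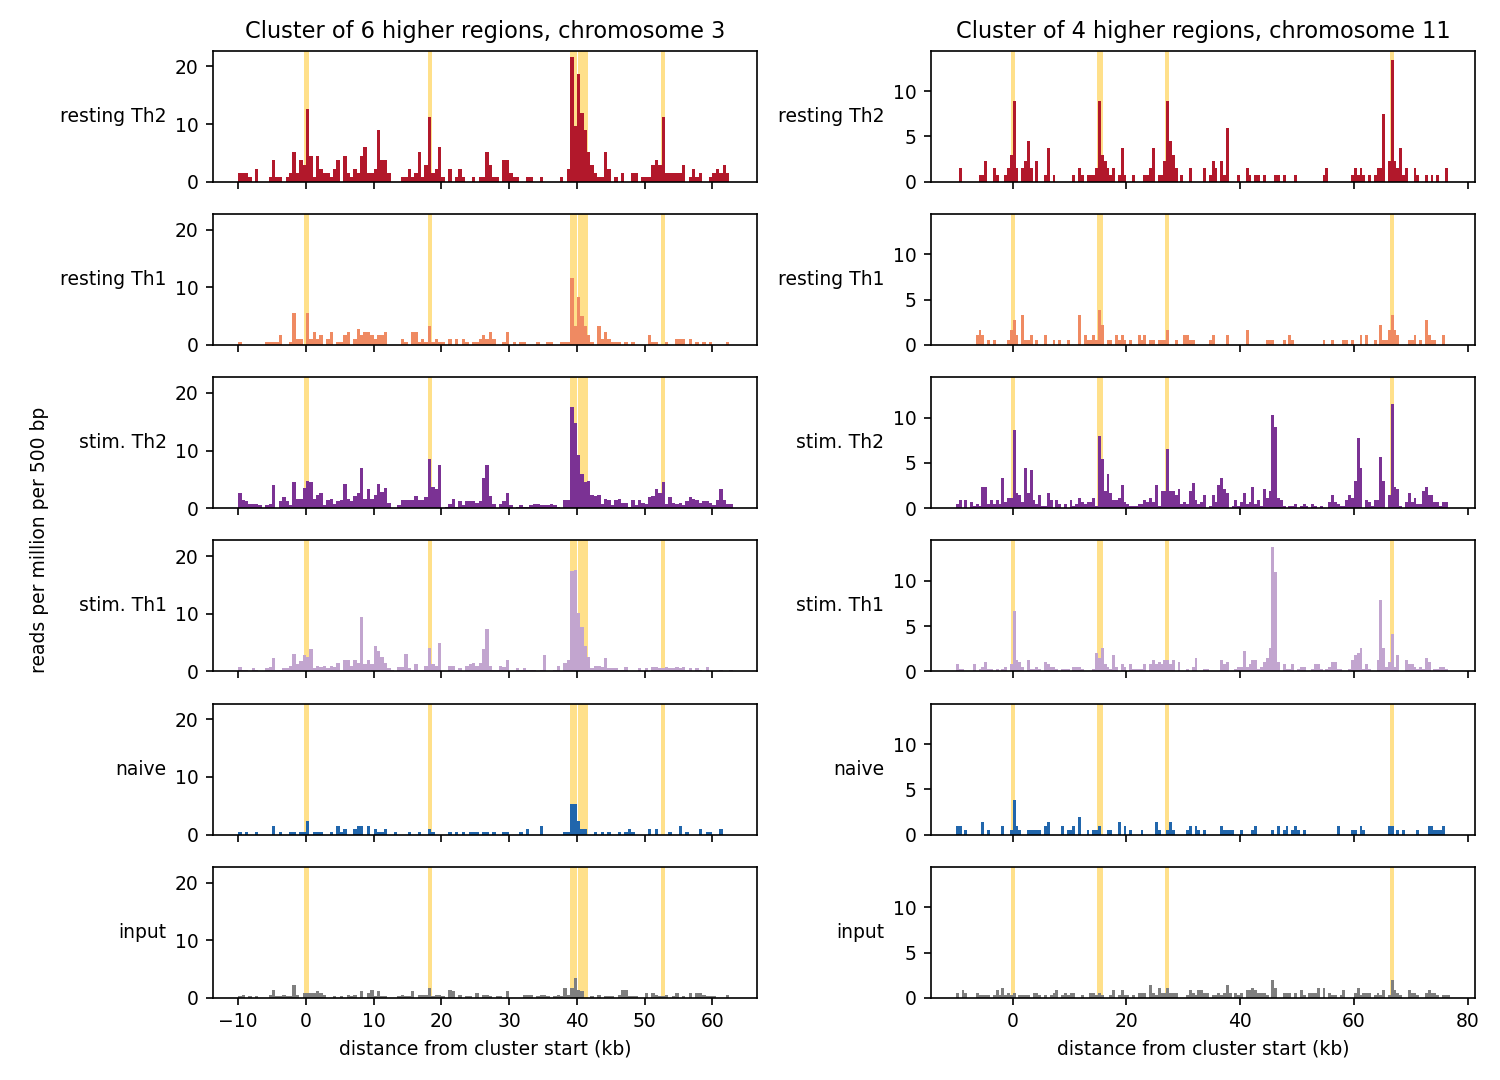
RPM per 500 bp in 6 libraries, against the distance in kb from the first base of the cluster, at the cluster of 6 regions on chromosome 3 and the cluster of 4 regions on chromosome 11; yellow marks the regions higher in resting Th2 than in naive. Peaks of resting Th2 at the marked regions are low or absent in naive and input, and at 3 of the 4 marked regions on chromosome 11 stimulated Th2 exceeds stimulated Th1.

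By chromosome, the share of tested regions that were higher in resting Th2 was 16.5% to 29.1% on chromosomes 1 to 19 and 11.9% on X. It was largest on chromosome 16, with 78 of 268 regions (29.1%, 23.7 to 34.9), and on chromosome 9, with 137 of 524 (26.1%, 22.4 to 30.1). On chromosome X, 14 of 118 were higher (11.9%, 6.64 to 19.1), against 20.5% (19.7 to 21.4) on chromosomes 1 to 19 together, and 4 were lower (3.39%, 0.931 to 8.45). The median ratio was 1.17 on X and 1.55 to 1.89 on the other chromosomes. Outside regions the ratio was also lowest on X: in 10 kb bins without regions the ratio was 0.792 (0.782 to 0.801) on X, and 0.809 to 0.942 on the others. In all, X held 3.70% of reads in resting Th2 and 4.43% in naive, with 4.21% in input and 2.90% in stimulated Th2. Only 12.8 resting Th2 regions and 6.31 naive regions were called on X per 100 protein-coding genes, against 27.0 to 54.1 and 10.7 to 18.98 on chromosomes 1 to 19, with genes counted by chromosome in the GRCm38 table. Resting Th2 thus exceeded naive on every chromosome in regions, and least on X.

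**Figure D5:**
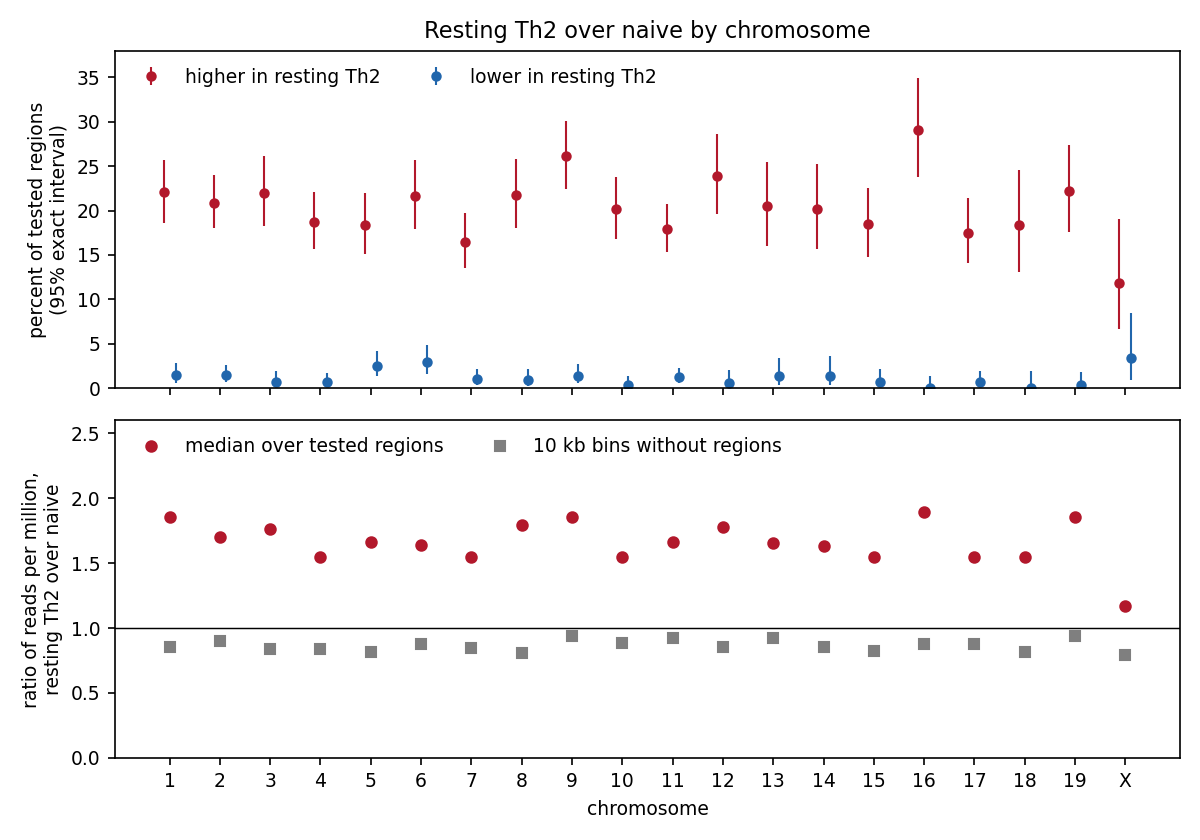
Top, percent of tested regions higher and lower in resting Th2 than in naive on each chromosome with 95% exact intervals; bottom, the ratio of RPM, as the median over tested regions (circles) and in 10 kb bins without regions (squares), with a line at 1. All medians lie above 1 and all bin ratios below it, and both are lowest on X.

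Resting Th2 and naive also differed over long stretches. Blocks were counted against a ratio of 1, although the ratio in bins of 10 kb without regions was 0.863. In 2507 blocks of 1 Mb with at least 500 input reads, the ratio of resting Th2 to naive was 0.469 to 2.31, with a median of 0.891, and its interval lay above 1 in 686 blocks and below 1 in 1242. The highest were chr12:26000001-27000000, with 1217 resting Th2 reads against 815 in naive (2.31, 2.11 to 2.53), and chr3:37000001-38000000, with 1694 and 1137 (2.30, 2.14 to 2.49), which contains the second cluster above. The lowest was chr15:87000001-88000000, with 174 resting Th2 reads against 573 in naive (0.469, 0.394 to 0.557). In that block resting Th1 had 359 reads and the input 1024.

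The share of higher regions varied with width, input and depth. It was 17.0% among tested regions of 200 bp, 26.1% at 400 bp and 24.2% at 600 to 1000 bp. It was 30.9% in the 2505 regions with least input and 8.85% in the 1966 with most, while the median ratio was 2.32 and 1.40. With 10 to 14 reads in the pair 25.1% were higher, and with 50 or more 4.85%. A region with few reads can pass only with a large ratio, and the input level moves with the calls. Their part in the result was not tested. The 6 regions with most reads were called neither way: they held 141 to 345 reads in resting Th2 and 148 to 462 in naive, with ratios of 1.15 to 1.60. The input held 22 to 483 reads in them. The first, chr2:98506201-98507400, had 257 RPM in resting Th2, 223 RPM in naive and 137 RPM in input. Just inside the threshold, among regions with at least 40 reads, were 4 regions with ratios of 3.01 to 3.09, and just outside 4 with 2.93 to 2.98, at like levels of 20.9 to 27.6 and 20.1 to 29.8 RPM in resting Th2. Set beside this comparison, resting Th1 over naive, which shares the naive library, had 1505 higher (15.7%) and 81 lower regions (0.843%) among 9607, with a median ratio of 1.60. Between the resting effectors, resting Th2 was higher than resting Th1 in 529 regions (4.8%) and lower in 249 (2.26%) among 11010. Stimulated over resting Th2, which shares the resting Th2 library, had 2779 higher (14.1%) and 990 lower regions (5.03%) among 19673.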

How the data were processed

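For each library the authors deposited its aligned reads (chromosome, start, end, strand), without counts or signal. Its score column, deposited as 0 in every line, was not used, and every read was 34 bases long. Per the submitters' processing notes, positions are on mm9; no aligner is named in the labels or headers. Libraries had 18 PCR cycles and a size selection of 250 to 300 bases, per the labels' protocols.

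With Python 3.11.15, NumPy 2.4.6 and SciPy 1.17.1, repeats of a position and strand were reduced to 1 read, Y was dropped, and 5′ ends moved 75 bp inward. Windows of 200 bp were called with a Poisson test (tail 1e-05) whose expectation was the genome mean or, if greater, the input around the window (1, 5 or 10 kb, scaled), with each BRG1 library thinned to 1340208 reads, and joined over gaps of 1 window. Ratios carry conditional exact (Clopper-Pearson) intervals. PCR copies are not independent molecules, so intervals and the floor of 3 counts cover counting error only. The steps were tested on simulated data. Planned steps on genes, promoters, motifs and marker lists need an annotation of the reads' build and were not run. Regions named are the 12 highest and 12 lowest by the interval bound nearest 1, 4 on each side of the threshold and the 6 with most reads. The 5 clusters named by size are those with most higher regions. Further clusters also held 4 such regions, and those with most resting Th2 reads in them were taken. The regions of clusters, those with Th2 preference after stimulation, and the 1 Mb blocks were picked once values were known. The comparison, its lists and its settings were chosen with earlier results of these data known.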

Additional observations from a re-analysis of the deposited data

How the results depend on the processing

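In every setting tried, more regions were higher than lower in resting Th2. All values are given as higher regions, lower regions and median ratio, with shares of the regions tested. The number tested differed between settings and was 8910 in the main one, so counts alone cannot be compared. With all reads kept they were 7016 (32.6% of 21490), 1660 (7.72%) and 1.86. In regions of the other 4 BRG1 libraries they were 1207 (17.0% of 7103), 60 (0.845%) and 1.55. With regions called on one part of the reads and counted on the rest, at lower depth, they were 294 (13.7% of 2140), 10 (0.467%) and 1.55. In fixed 1 kb windows they were 4549 (15.9% of 28674), 380 (1.33%) and 1.55. With at least 20 reads they were 510 (14.6% of 3499), 27 (0.772%) and 1.55. Without a minimum there were 4218 higher regions (18.1% of 23243) and a median of 2.21. Division by the median ratio gave 805 (9.03%) and 522 (5.86%) of 8910, and division by the ratio in bins without regions 60 lower (0.673%). Intervals that leave out 0.001 in place of 0.05 gave 719 (8.07%) and 2 (0.0224%) of the same 8910. A tail of 1e-07 gave 61 lower (1.02% of 5975) and 1.86, and a planned shift longer than 75 bp 64 lower (0.881% of 7263) and 1.73. The median was 1.75 with naive thinned, 2.01 in regions of the pair only, 1.75 without a shift, 1.58 in regions with a density of 0.5 times input or more in each library and, in a setting chosen after the data were examined, 1.83 without the 1966 regions with most input.

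Regions called in resting Th2 numbered 30306 with all reads kept and 4502 at a tail of 1e-07, and in naive 17027 and 1334. Without thinning, naive had 5386 regions, and the shares overlapped became 26.01% of resting Th2 and 41.3% of naive regions. With all reads kept, 16.4% of resting Th2 reads and 7.12% of naive reads lay in their own regions. The 12 highest and 12 lowest regions kept their calls with all reads. They also kept them after division by the median, which could not have come out otherwise. The highest were picked for ratios and bounds far above that median, and division lowers the lowest ratios further. With 500 bp added on each side 7 of the 12 lowest lost theirs. Of the 4 regions just inside the threshold, 4 lost the call after division by the median, 3 when widened and 1 with all reads. The loss after division was likewise fixed, since their ratios lay only just above the threshold. Of the 4 just outside 3 gained the call with all reads. Of the 6 regions with most reads, which were not called, the ratios after division by the median were 0.685, 0.841, 0.707, 0.679, 0.718 and 0.948, and with all reads those ranked 1, 3 and 4 had 0.474, 0.498 and 0.434. The causes were not tested. No paired analysis was possible because each group has 1 library.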

Other observations

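In resting Th2, repeated reads made up 46.5% of reads in the higher regions, 33.9% in the lower regions, 46.8% in all tested regions and 35.5% outside all regions. In naive the shares were 44.2% in the higher, 45.8% in the lower and 54.7% in all tested regions, and 40.5% outside. In input they were 17.9% in the higher, 19.3% in the lower and 48.8% in all tested regions, and 5.94% outside.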
